A study of Mus musculus with 38 samples.

Results

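Interferon-stimulated genes, the genes that type I and type II interferons switch on in many cell types, were followed across 5 mouse CD8 T cell clones at rest and after stimulation of the T cell receptor complex. The set was a list of 44 gene symbols. No rule on measured values picked them, but they were chosen with earlier results of these data known. Of the 44, 43 had a probe set among the 23410 probe sets that the platform annotation ties to a gene. Ifi44 had none and was not analysed here. Igtp and Irgm2 share 1 probe set, so all counts below are over 42 probe sets. The probe sets of 6 members name several genes, so their values cannot be given to 1 gene: Isg15 (named with Gm9706), Ifi47 (with Olfr56), Igtp and Irgm2 (with each other), Gbp2 (with Gbp2b) and Gbp6 (with Gbp4, Gbp8, Gbp9, Gbp10 and Gbp11).

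Interferons act through cell surface receptors and Janus kinases. Type I interferon acts on target promoters mainly through the interferon-stimulated response element (ISRE), which is bound by a complex that includes Stat2 and Irf9, and interferon gamma mainly through the gamma-activated sequence (GAS). The induced proteins include transcription factors such as Irf1, sensors of viral RNA such as Ifih1 (MDA5), antiviral effectors such as Mx1 and the Ifit proteins, and large GTPases of the guanylate-binding (Gbp) and immunity-related (Irgm, Igtp) families that act on vacuoles holding intracellular microbes. CD8 T cells both secrete interferon gamma and carry its receptor.

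The series compared IL13+ CD8 clones, sAg1 and sAg3, with IL13-negative CD8 clones, 8uvmo-2 and 8uvmo-3, which the design text calls Tc1, and with CD8bm1, an alloreactive conventional CD8 clone. Every clone was kept in the same medium with fetal bovine serum, and its RNA was taken either from dormant cells or from cells activated for 14 h on plates with adsorbed anti-CD3 at 0.5 ug/ml. There were 3 arrays each of dormant sAg1 and dormant sAg3 and 4 arrays of every other group, 18 dormant and 20 activated arrays in all. Every phenotype rested on 1 or 2 clones, the labels do not say whether the arrays of a clone came from separate cultures, and p-values therefore measure the spread between arrays of a clone, which may be technical.

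Deposited values were log2 signals with a median of 6.91 over the tested probe sets, and arrays of a group correlated at 0.986 to 0.998 over all tested probe sets. Array medians were 6.58 to 6.70 in dormant and 7.01 to 7.09 in activated arrays, and the median probe set was 0.35 higher after activation on deposited values. Activation differences are therefore given relative to the array medians (centred), beside the count on deposited values, and the words rose and fell are kept for genes called in the same direction on deposited, centred and quantile-normalized values. A gene was called at an adjusted p under 0.05 in limma and a log2 difference of at least 1. T cell markers, 8 measured, were at 7 or above for at least 7 of 8 in every group, and none of 6 B cell markers was. Of 21 markers of macrophages and dendritic cells, 2 to 6 reached 7 in a group, and their mean level on an array was 5.63 to 7.46, highest in activated sAg3. NK cell markers reached 7 for 1 or 2 of 3, and those of stroma and epithelium for 2 to 5 of 9. Csf1r, C1qa, C1qb and Adgre1 had group means below 7 throughout, but Lyz2 was at 8.75, 9.08 and 9.94 in dormant sAg1 and at 8.40 in activated sAg3 replicate 1.

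Promoters of 31 of the 44 members, 38 in all, were in the RefSeq promoter table (GRCm38.p6, 250 bases before to 50 after the start site). The core letters of the ISRE, GAAANNGAA, and of the GAS, TTCNNNGAA, were searched on both strands, with overlapping matches allowed. The ISRE core was in 21 of 38 promoters (55.3%), against 8.56% of all 32851 promoters, and the GAS core in 11 (28.9%), against 8.30%. Both were in 18.4% of the member promoters and in 1.07% of all. A match describes letters in this window and does not show that a factor binds there.

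The 150 bases before the start site are printed 5′ to 3′ on the gene's strand for 4 members whose probe sets fell after activation (Irf1, Gbp2, Gbp7 and Igtp) and for 2 that did not pass the call (Ifit1 and Isg15), to show the 2 kinds of site side by side. Only promoters holding a core were printed, so a core in every window follows from this choice. A second Irf1 promoter, not printed, held neither core. Capitals mark the ISRE and GAS cores. The windows are chr11:53769864-53770013 (+ strand) for Irf1, chr3:142620513-142620662 (+) for Gbp2, chr3:142530186-142530335 (+) for Gbp7, chr11:58199406-58199555 (+) for Igtp, chr19:34640739-34640888 (+) for Ifit1 and chr4:156200819-156200968 (-) for Isg15.
Irf1: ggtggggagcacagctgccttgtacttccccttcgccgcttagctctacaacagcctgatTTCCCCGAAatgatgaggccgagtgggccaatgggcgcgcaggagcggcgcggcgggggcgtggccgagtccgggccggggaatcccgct
Gbp2: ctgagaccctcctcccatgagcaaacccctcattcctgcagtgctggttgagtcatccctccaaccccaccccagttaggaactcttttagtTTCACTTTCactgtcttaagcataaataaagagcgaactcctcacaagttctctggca
Gbp7: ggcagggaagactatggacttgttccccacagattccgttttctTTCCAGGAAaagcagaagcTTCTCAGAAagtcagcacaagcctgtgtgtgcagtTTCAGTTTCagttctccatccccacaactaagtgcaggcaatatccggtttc
Igtp: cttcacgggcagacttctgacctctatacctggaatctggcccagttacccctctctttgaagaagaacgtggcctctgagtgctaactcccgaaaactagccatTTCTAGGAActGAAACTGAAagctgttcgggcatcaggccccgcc
Ifit1: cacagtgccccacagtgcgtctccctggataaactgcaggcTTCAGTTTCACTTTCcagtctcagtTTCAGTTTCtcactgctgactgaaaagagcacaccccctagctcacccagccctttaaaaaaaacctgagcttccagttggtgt
Isg15: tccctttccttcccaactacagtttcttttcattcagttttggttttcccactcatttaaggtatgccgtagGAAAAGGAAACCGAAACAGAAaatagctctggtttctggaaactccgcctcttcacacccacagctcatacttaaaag

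The window of Irf1 held 1 GAS core and no ISRE core, that of Gbp2 held 1 ISRE core and no GAS core, and those of Gbp7 (1 ISRE, 2 GAS) and Igtp (1 of each) held both kinds. Ifit1 and Isg15 each held 3 ISRE cores and no GAS core. The members called lower on deposited values had 11 promoters, from 8 genes, with Igtp and Irgm2 counted separately. Mx1, Gbp4 and Gbp6 had no promoter among those searched, and Irf1, Ifit2 and Trim30a had more than 1. An ISRE core was in 6 of the 11 (54.5%, against 55.3% of all member promoters and 8.56% of all promoters). A GAS core was in 5 (45.5%, against 28.9% and 8.30%). Neither core was thus in all of them.

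The members fell into genes with strong and with weak signal in these clones. For 11 of 42 probe sets the mean stayed below 7 in all 10 groups: the antiviral effectors Ifit1, Ifit3, Rsad2 (viperin), Mx2, Oas1a, Oas2, Oas3, Oasl2 and Rtp4, the ISG15 protease Usp18, and the GTPase Iigp1. The arrays have no measured background here, so a low value was read neither as absence nor as expression. At the other end, Bst2 (tetherin), which holds virions at the cell surface, was at 10.02 to 12.13 and Gbp7 at 9.68 to 12.53 over all arrays. Levels are compared within a probe set only.

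**Figure D1:**
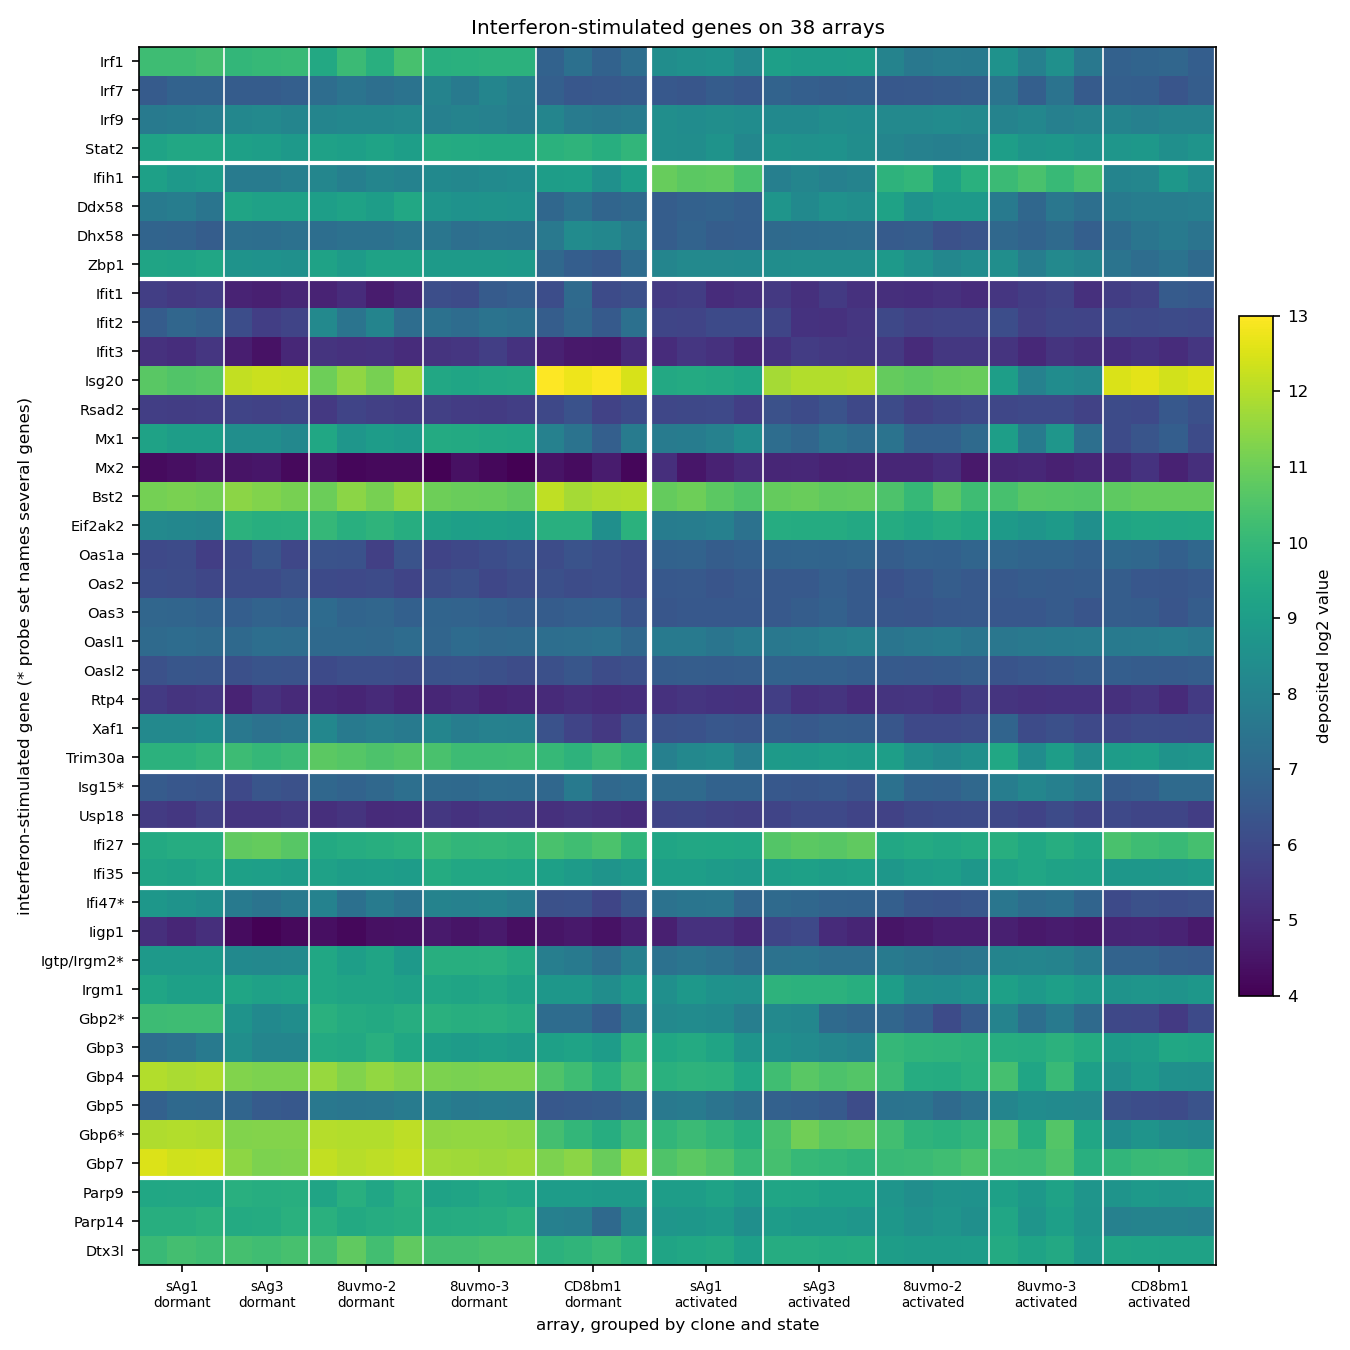
Deposited log2 values (colour, 4 to 13) of the 42 member probe sets (rows, ordered by role, white lines between roles) on the 38 arrays (columns, grouped by clone and state). The rows of Irf1, Zbp1, Xaf1, Gbp2 and Parp14 are darker in dormant CD8bm1 than in the other dormant clones, and the rows of Gbp2, Gbp4, Gbp6 and Gbp7 are darker in the activated than in the dormant arrays of the same clone.

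After activation part of the set was lower, led by Gbp genes, Trim30a and Irf1, and no member was called higher over the 5 clones. Averaged over the 5 clones, with the same sign in each, 0 of 42 member probe sets were called higher on deposited values (4.56% of all probe sets) and 10 were called lower (23.8%, against 1.64% of all). After centring, 0 were higher (1.06%) and 16 lower (5.56%). Called on all 3 scalings were 0 higher (0.953%) and 9 lower (1.60%): Irf1, Ifit2, Mx1, Trim30a, Igtp/Irgm2, Gbp2, Gbp4, Gbp6 and Gbp7. The median centred difference of the members was -0.72, against -0.05 over all tested probe sets, and 24 of 42 were below 0 in each of the 5 clones. At an adjusted p under 0.05 alone, with no minimum size and no condition on the clones, 14 were higher and 26 lower on deposited values. After centring these were 5 and 33. The share of all probe sets was not counted for these settings or for the 24, so they describe the members only. In RNA from whole cultures, fewer cells with a transcript and less of it per cell cannot be told apart.

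**Figure D2:**
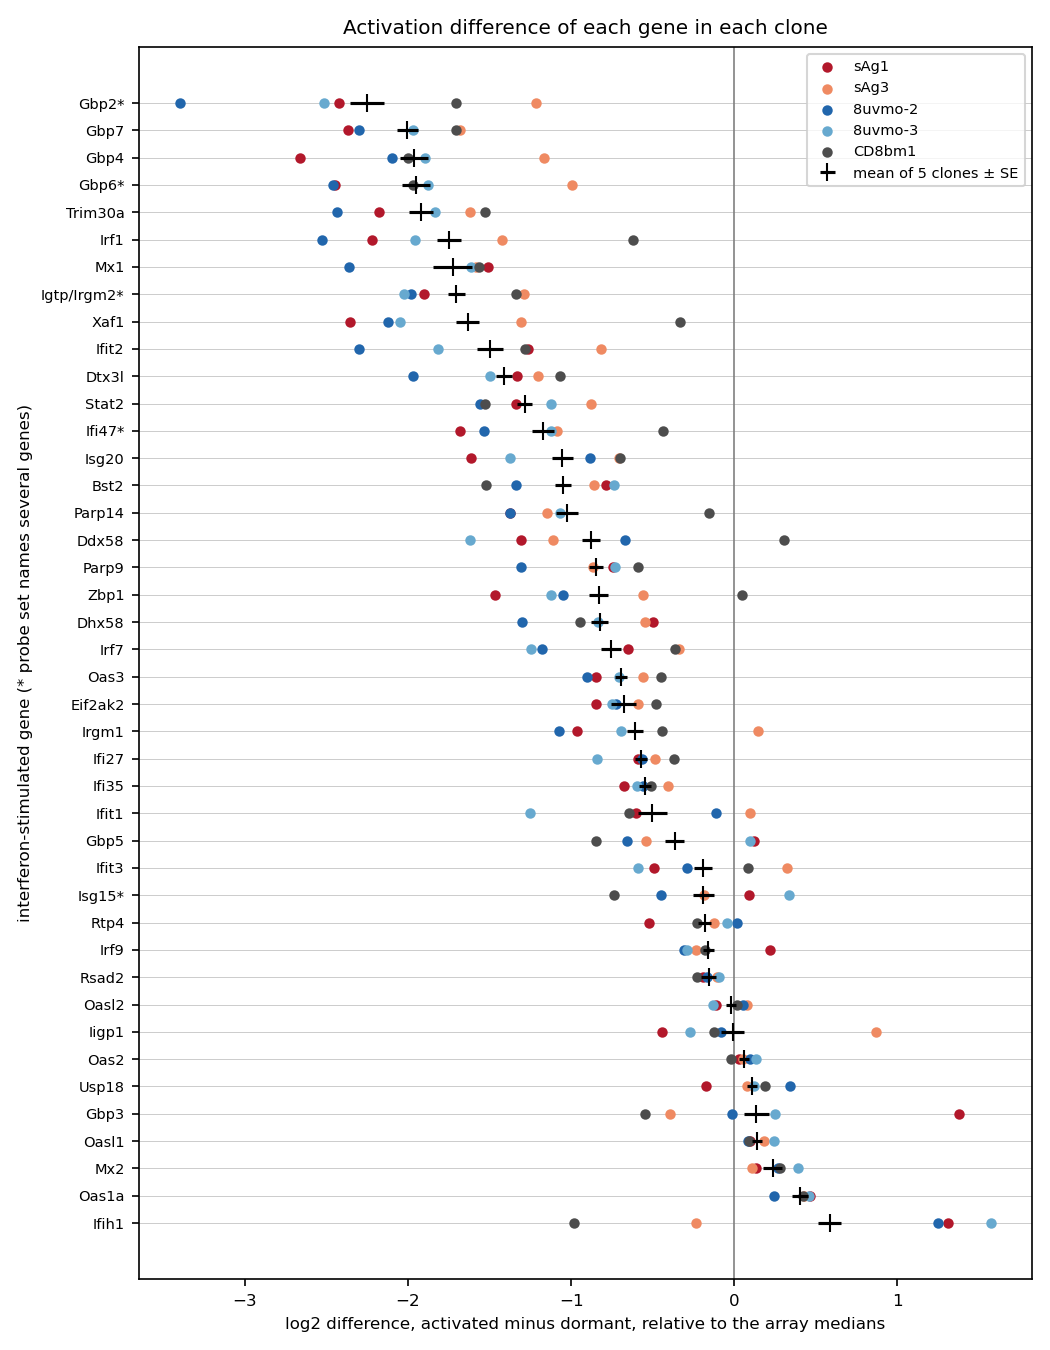
Log2 difference, activated minus dormant, relative to the array medians (x axis) of each member probe set (y axis, ordered by the mean of 5 clones). Coloured points are clones, black bars the mean with its standard error. Gbp2 has the lowest mean, -2.25, and Ifih1 the highest, 0.59, with 3 clones to the right of 1 and CD8bm1 at -0.98.

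Of the 4 transcription factors, Irf1 fell, and Irf7, Irf9 and Stat2 were not called on all 3 scalings. Irf1 activates many interferon gamma targets. Its deposited values were 10.19, 10.22 and 10.30 in dormant sAg1 and 8.41, 8.50, 8.59 and 8.20 in activated sAg1. In sAg3 they were 9.97, 10.03 and 10.06 dormant and 9.07, 8.99, 8.96 and 9.01 activated. The groups of both IL13+ clones were well apart. In 8uvmo-2 they were 9.42, 10.12, 9.67 and 10.37 dormant and 8.02, 7.59, 7.75 and 7.71 activated. In 8uvmo-3 they were 9.69, 9.71, 9.77 and 9.79 dormant and 8.60, 7.93, 8.53 and 7.62 activated. In CD8bm1 they were 6.82, 7.31, 6.83 and 7.25 dormant and 6.80, 6.89, 6.96 and 6.70 activated. The CD8bm1 groups overlapped, and both lay below every array of the other clones. The mean centred difference was -1.75 (SE 0.076, 3.36-fold lower, adjusted p = 7.7e-21), from -2.52 in 8uvmo-2 to -0.62 in CD8bm1. A second probe set annotated to Irf1 did not show this: its mean was 7.07 in dormant and 7.17 in activated arrays (deposited difference 0.08, adjusted p = 0.128, centred -0.32), so the fall holds for 1 of the 2 Irf1 probe sets.

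Stat2, part of the complex that binds the ISRE, had a median of 9.40 over the 18 dormant arrays (8.87 to 9.91) and of 8.57 over the 20 activated arrays (7.88 to 9.03). Its mean difference was -0.88 deposited and -1.28 centred, which passed the minimum size only after centring. Stat2 fell in 8uvmo-2 (centred -1.56) and in CD8bm1 (-1.53). Irf9, its partner, differed by -0.16 after centring, and Irf7, which drives type I interferon genes, by -0.75, neither of them called.

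The inducible GTPases moved most: 5 of 10 probe sets fell, with a median centred difference over the 10 of -1.44. Gbp4 is also named on the probe set of Gbp6, so these 2, counted separately throughout, may not be separate measurements. Gbp2 was at 10.18, 10.20 and 10.20 in dormant sAg1 and at 8.25, 8.33, 8.27 and 7.85 after activation. In sAg3 it was at 8.64, 8.26 and 8.40 dormant and at 8.25, 8.17, 7.11 and 6.98 activated. In 8uvmo-2 it was at 9.73, 9.53, 9.47 and 9.61 dormant and at 6.97, 6.69, 6.07 and 6.60 activated. The 8uvmo-2 groups were the farthest apart, whereas in sAg3 activated replicates 1 and 2 lay just below the dormant range and replicates 3 and 4 more than 1 below it. On these activated sAg3 arrays the macrophage and dendritic cell markers had a mean level of 6.62 to 7.46, against at most 6.04 on dormant sAg3 arrays. These are deposited levels, for which array medians were also higher after activation. B cell markers in sAg3 likewise went from 5.29 to 5.36 on dormant arrays to 6.01 to 6.14 on activated arrays. Lyz2 was at 8.40, 5.36, 5.66 and 5.96 on the activated sAg3 arrays. The part of the macrophage and dendritic cell markers in the sAg3 values was not tested. In 8uvmo-3 Gbp2 was at 9.70, 9.65, 9.67 and 9.57 dormant and at 8.01, 7.25, 7.71 and 7.11 activated. In CD8bm1 it was at 7.17, 7.19, 6.70 and 7.55 dormant and at 5.95, 5.91, 5.54 and 6.02 activated. No clone's groups overlapped. The mean centred difference of Gbp2 was -2.25 (SE 0.10, 4.76-fold lower, adjusted p = 5.35e-20).

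Gbp7 had a median of 11.74 in dormant arrays (10.96 to 12.53) and of 10.14 in activated arrays (9.68 to 10.72), with no overlap of the 18 and the 20 arrays. Its mean centred difference was -2.005 (SE 0.065, adjusted p = 2.63e-24). Gbp4 went from a median of 11.24 (9.72 to 11.96) to 9.72 (8.49 to 10.68), and the probe set of Gbp6 and its neighbours from 11.53 (9.60 to 12.10) to 9.91 (8.31 to 11.04). Ranges over all arrays overlapped for both, since dormant CD8bm1 was at 9.72 to 10.53 for Gbp4 and at 9.60 to 10.31 for Gbp6, below some activated arrays of other clones. Within each clone neither overlapped. Their centred differences were -1.96 (SE 0.086) and -1.95 (SE 0.085). Igtp/Irgm2, GTPases of the immunity-related family, had a median of 8.83 dormant (7.28 to 9.69) and 7.42 activated (6.60 to 8.08), a centred difference of -1.71 (SE 0.053, adjusted p = 5.38e-25). Ifi47, also of that family, differed by -0.77 deposited and -1.17 centred and passed only on the centred and quantile-normalized values. Irgm1 (-0.61 centred), Gbp5 (-0.36), Iigp1 (-0.009) and Gbp3 (0.14) were not called over the 5 clones.

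**Figure D3:**
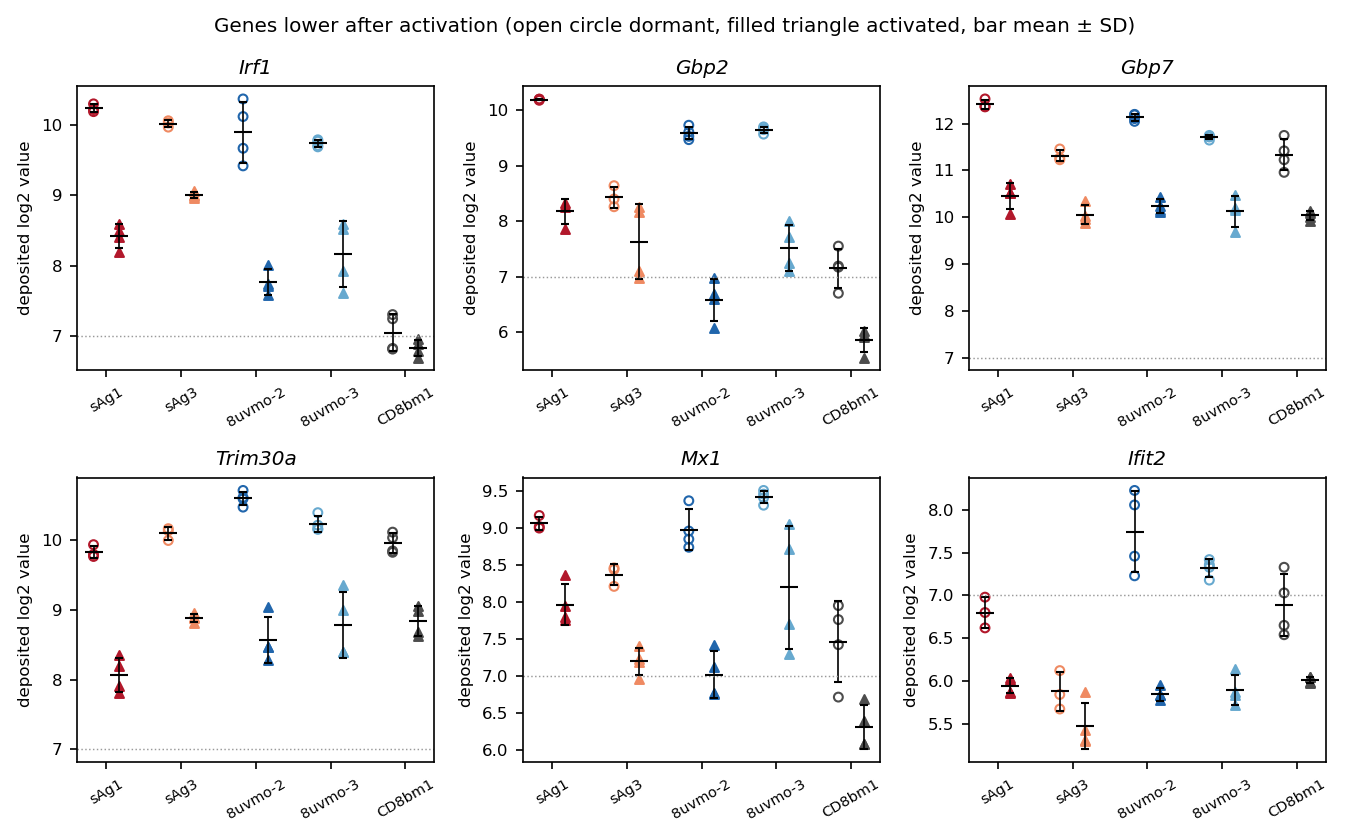
Deposited log2 values of 6 members (panels) by clone (x axis) in dormant (open circles) and activated arrays (filled triangles), with the group mean ± SD as black bars; the dotted line marks 7, and each panel has its own y axis that does not start at 0. For Gbp7 and Trim30a the triangles of all clones lie below all circles, whereas Irf1 in CD8bm1 sits near 7 in both states.

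Of 17 antiviral effectors, Trim30a, Mx1 and Ifit2 fell. Trim30a, a TRIM family protein, had a median of 10.15 over dormant arrays (9.77 to 10.72) and of 8.65 over activated arrays (7.81 to 9.36), again with no overlap. Its centred difference was -1.92 (SE 0.073, 3.79-fold lower, adjusted p = 1.76e-22). Mx1, a GTPase that blocks influenza virus, went from a median of 8.90 (6.71 to 9.51) to 7.26 (6.07 to 9.06), a centred difference of -1.73 (SE 0.12, adjusted p = 3.08e-15). Ifit2, which binds viral RNA, was at 7.10 (5.67 to 8.23) in dormant and at 5.87 (5.29 to 6.14) in activated arrays, with a centred difference of -1.50 (SE 0.079). All 20 activated arrays were at or below 6.14 for Ifit2, in the low range of these arrays. Taken clone by clone, Ifit2 was called lower only in 8uvmo-2 and 8uvmo-3, and without 8uvmo-2 the mean over the other clones was -0.892 on deposited values and was no longer called. Xaf1, a proapoptotic protein, differed by -1.23 deposited and by -1.63 centred. Xaf1 was not called on deposited values because CD8bm1 differed the other way there (0.07). Isg20, an exonuclease (-1.05), and Bst2 (-1.05) passed only after centring. The Oas genes, which make the second messenger that switches on RNase L, differed by -0.69 (Oas3) to 0.40 (Oas1a) after centring, and none was called.

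None of the 4 RNA and DNA sensors was called over the 5 clones. Neither probe set of the ISG15 system was, nor were Ifi27 and Ifi35. In the PARP9 complex, whose members Parp9, Parp14 and Dtx3l modify histones and proteins by ADP-ribose and ubiquitin, Dtx3l had a median of 10.30 in dormant (9.74 to 10.82) and 9.23 in activated arrays (8.88 to 9.58). Its arrays did not overlap, yet the difference was -1.01 deposited, -1.41 centred and -0.99 quantile-normalized, on both sides of the minimum size. It was also lost without 8uvmo-2 (-0.871) and when any 1 of 5 arrays was left out: dormant 8uvmo-2 replicates 2 (-0.993) and 4 (-0.995), dormant CD8bm1 replicate 3 (-0.998), activated sAg1 replicate 4 (-0.997) and activated 8uvmo-3 replicate 4 (-0.986).

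Clone by clone, the members called lower differed in number and identity. On deposited values sAg1 had 2 higher (7.22% of all probe sets) and 12 lower (3.62%), sAg3 had 1 higher (4.08%) and 4 lower (0.94%), 8uvmo-2 had 1 higher (7%) and 13 lower (4.87%), 8uvmo-3 had 1 higher (6.2%) and 12 lower (3.86%), and CD8bm1 had 0 higher (4.58%) and 8 lower (2.67%). The order of the clones depended on the scaling. After centring, 12 were lower in sAg3 and 11 in CD8bm1, and after quantile normalization 7 and 10. Shares of all probe sets were not counted by clone on these scalings. For the mean over clones, centring took the share called lower from 1.64% to 5.56%. Mx1, Trim30a and Gbp7 were called lower in every clone. Only Irf1 (-1.01 deposited, not called at -0.98 after quantile normalization) joined them in sAg3, and its call was lost without dormant replicate 3 (-0.992) or activated replicate 3 (-0.997). In CD8bm1 that of Mx1 was lost without dormant replicate 1 (-0.994). Gbp4 had a centred difference of -1.17 in sAg3 and -2.66 in sAg1, and Gbp6 of -0.993 and -2.45. Zbp1 and Isg20 fell in sAg1, Ddx58 in 8uvmo-3 and Bst2 in CD8bm1, each with one clone past the call. Without activated 8uvmo-3 replicates 2 and 4, 7 members were called lower in 8uvmo-3, as given with those arrays below.

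Ifih1 was called higher in 3 clones. It encodes MDA5, the sensor of long double-stranded RNA. In sAg1 it went from 9.13, 8.84 and 8.96 to 10.90, 10.73, 10.76 and 10.40. In 8uvmo-2 it went from 8.13, 7.88, 8.08 and 7.99 to 9.82, 9.97, 9.18 and 9.70, and likewise in 8uvmo-3 from 8.28, 8.18, 8.31 and 8.39 to 10.14, 10.41, 10.05 and 10.41. In these 3 clones Ifih1 rose, by 1.31, 1.25 and 1.58 after centring, and the states did not overlap. In sAg3 it was at 7.74, 7.76 and 7.88 dormant and at 7.87, 8.09, 7.92 and 8.01 activated, and in CD8bm1 at 9.02, 9.05, 8.53 and 9.03 dormant and at 8.06, 8.12, 8.77 and 8.39 activated. In both of these clones the states overlapped, with centred differences of -0.23 and -0.98. The range of the activation difference over clones was 2.54 (F test in limma, adjusted p = 6.85e-13).

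Gbp3, unlike the Gbp genes above, rose in sAg1: 7.21, 7.34 and 7.67 dormant and 9.36, 9.49, 9.27 and 8.66 activated, a centred difference of 1.38. In the other clones it was not called, with centred differences of -0.54 in CD8bm1 to 0.25 in 8uvmo-3. Iigp1 was called higher in sAg3 on deposited values (1.28), but from 4.20 ± 0.13 (SD, n = 3) to 5.48 ± 0.53 (SD, n = 4), both below 7, and it was not called after centring (0.87) or quantile normalization (0.73). Its activated values were 5.88, 5.99, 5.10 and 4.94, with replicates 1 and 2 above replicates 3 and 4, as for Gbp2 and for the chemokine gene Cxcl9 (7.54, 7.42, 6.76 and 6.21). In dormant sAg1 the macrophage gene Lyz2 was high (above), and 4 of 21 macrophage and dendritic cell markers reached 7 there in either state; their part in the sAg1 values was not tested. Without sAg1 the mean over the remaining clones still had 10 members lower.

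Among all members, activation differed among the clones in 16 of 42 (38.1%, against 14.4% of all probe sets). After Ifih1 the widest ranges were those of Gbp2 (2.20), Xaf1 (2.02), Ddx58 (1.95), Gbp3 (1.93), Irf1 (1.91), Zbp1 (1.51) and Gbp4 (1.497). For Xaf1, Ddx58, Irf1 and Zbp1 the clone at the upper end was CD8bm1, which in the dormant state was the lowest clone for each of these 4 genes. Its dormant means were 5.93 for Xaf1, 7.085 for Ddx58, 7.05 for Irf1 and 6.85 for Zbp1, near or below 7. On deposited values, for which array medians were also higher after activation, Ddx58 and Zbp1 were higher in activated CD8bm1. Their means there were 7.798 and 7.305, and the states overlapped for Zbp1 but not for Ddx58. The Irf1 mean was lower, at 6.838, and Xaf1 was at 5.93 to 6.07, within its dormant range of 5.48 to 6.25. Whether the low dormant signal limits a fall of Irf1 or Xaf1 in CD8bm1 was not tested.

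The dormant clones differed from each other in 24 of 42 members (57.1%, against 20.7%), and the activated clones in 17 (40.5%, against 13.2%). All 4 sensors and 8 of 10 GTPase probe sets differed among dormant clones. The widest range in either state was that of Isg20: dormant means were 12.80 ± 0.25 in CD8bm1 (SD, n = 4), 12.23 ± 0.055 in sAg3 (n = 3), 11.34 ± 0.32 in 8uvmo-2 (n = 4), 10.62 ± 0.065 in sAg1 (n = 3) and 9.38 ± 0.055 in 8uvmo-3 (n = 4). The order of the clones was the same after activation, from 12.51 ± 0.11 in CD8bm1 to 8.39 ± 0.46 in 8uvmo-3. No 2 neighbouring clones overlapped in the dormant state. Eif2ak2 (PKR), a kinase that halts translation, was low in sAg1 (8.17 ± 0.065 dormant, 7.73 ± 0.22 activated) against group means of 8.75 to 9.78 elsewhere. Ifi27 was highest in sAg3, at 10.77 ± 0.10 dormant and 10.70 ± 0.088 activated.

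Ddx58, which encodes RIG-I, the sensor of short double-stranded RNA with a 5′ triphosphate, split the dormant clones differently. It was at 9.19 ± 0.072 in sAg3, 9.15 ± 0.17 in 8uvmo-2, 8.63 ± 0.047 in 8uvmo-3, 7.66 ± 0.16 in sAg1 and 7.08 ± 0.20 in CD8bm1. The first and the second did not differ beyond their spread, and the arrays of sAg1 and CD8bm1 lay below all arrays of the others. After activation CD8bm1 was at 7.80 ± 0.071 and sAg1 at 6.76 ± 0.097.

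**Figure D4:**
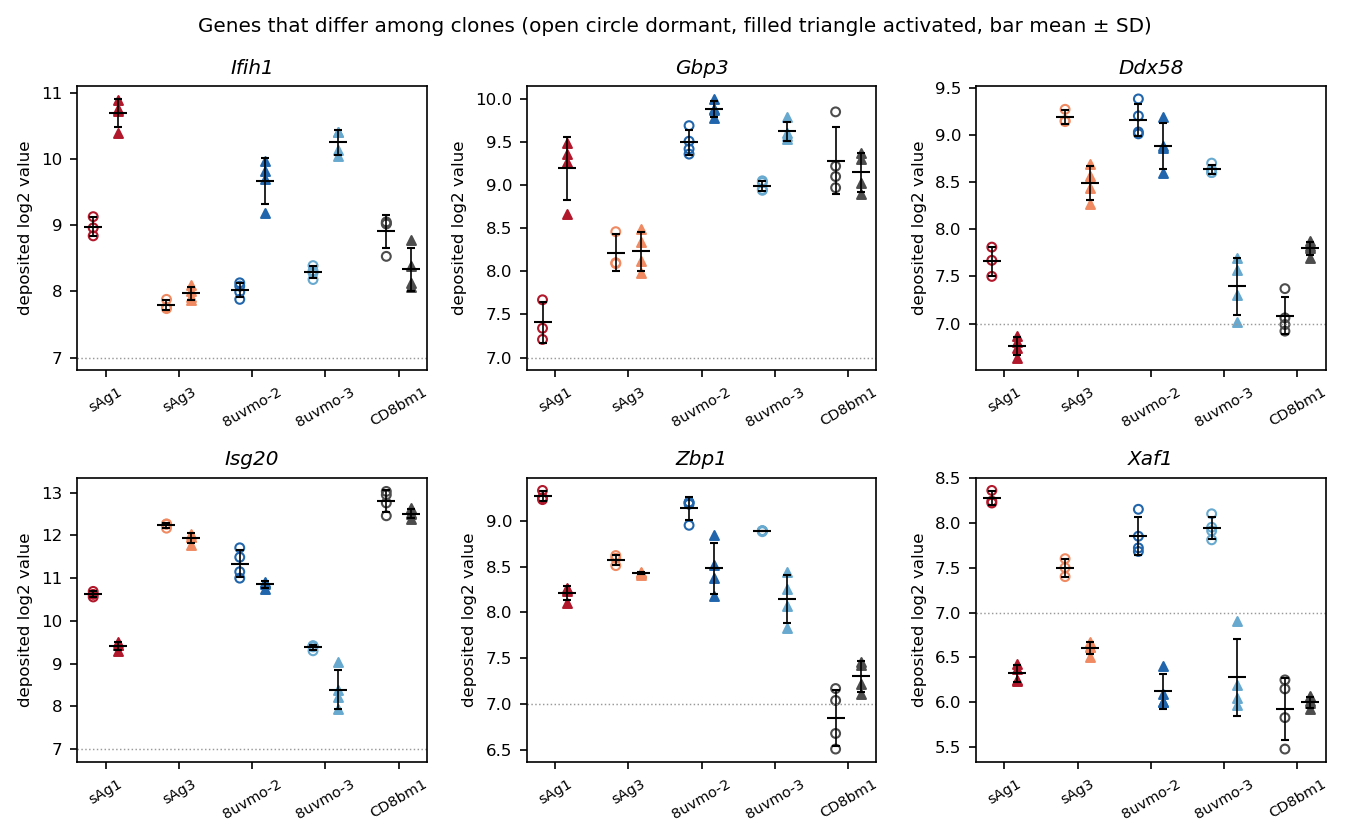
Deposited log2 values of 6 members (panels) by clone (x axis) in dormant (open circles) and activated arrays (filled triangles), with the group mean ± SD as black bars; the dotted line marks 7, and each panel has its own y axis that does not start at 0. Ifih1 is higher in activated sAg1, 8uvmo-2 and 8uvmo-3, the order of clones for Isg20 is the same in both states, and Zbp1 and Xaf1 are lowest in dormant CD8bm1.

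Against the alloreactive clone CD8bm1, dormant IL13+ clones had 10 members higher (23.8%, against 3.14% of all) and 3 lower (7.14%, against 4.12%). The higher ones were Irf1, the sensors Ddx58 and Zbp1, the effectors Mx1 and Xaf1, the GTPases Ifi47, Gbp2, Gbp4 and Gbp6, and Parp14. Irf1, at 9.97 to 10.30 on the 6 IL13+ arrays and 6.82 to 7.31 on the 4 CD8bm1 arrays, differed by 3.08 (SE 0.15, 8.43-fold, adjusted p = 1.31e-18). Zbp1, a sensor of left-handed nucleic acids that starts cell death, was at 9.25, 9.23 and 9.33 in sAg1, at 8.62, 8.59 and 8.51 in sAg3 and at 7.04, 6.68, 6.51 and 7.17 in CD8bm1. The clones were apart on every array, with a difference of 2.07 (SE 0.11, 4.20-fold). Gbp2 differed by 2.16 (SE 0.20), Xaf1 by 1.96 (SE 0.13), Ifi47 by 1.93 (SE 0.12) and Parp14 by 1.89 (SE 0.13).

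These genes were not high in the IL13+ clones alone. Dormant 8uvmo-2 and 8uvmo-3 were at 9.89 and 9.74 for Irf1, at 9.13 and 8.89 for Zbp1, at 7.85 and 7.94 for Xaf1 and at 9.60 and 9.62 for Parp14, so CD8bm1 stood below the 4 other clones. The comparison has 1 alloreactive clone, so the phenotype and that clone cannot be told apart. Lower in the IL13+ clones were Gbp3 (-1.47, SE 0.14), Isg20 (-1.37, SE 0.13) and Ifit1 (-1.12, SE 0.17; -0.87 and not called without dormant CD8bm1 replicate 2). With sAg1 left out, the differences of Isg20 (-0.57) and Mx1 (0.91) no longer reached the minimum size and 5 members were called lower. The share of all probe sets was not counted for that fit. Proliferation genes also differed: the mean level of 17 was 9.79 to 11.22 on dormant CD8bm1 arrays, 7.92 to 8.44 in dormant sAg1 and 8.69 to 9.54 in dormant sAg3; their part in these differences was not tested.

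After activation 6 members were higher in IL13+ clones than in CD8bm1 (14.3%, against 2.02%) and 1 was lower (2.38%, against 1.65%). Irf1 (1.88, SE 0.14), Gbp2 (2.05, SE 0.19), Gbp6 (1.88, SE 0.16), Gbp4 (1.48, SE 0.16), Mx1 (1.28, SE 0.22) and Zbp1 (1.01, SE 0.10) were called higher. For Zbp1 the call was lost without activated CD8bm1 replicate 2 (0.99) or replicate 4 (0.95). The difference of Isg20 was -1.83 (SE 0.12). Without sAg1 it was -0.57 and no longer called, nor was Mx1 (0.89).

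Between IL13+ and IL13-negative clones few members were called with both clones of each phenotype in the fit. In the dormant state 0 were higher in the IL13+ clones (1.02% of all) and 2 were lower (4.76%, against 2.33%): Gbp3 and Ifit2. Gbp3 was at 7.21, 7.34 and 7.67 in sAg1, at 8.46, 8.09 and 8.10 in sAg3, at 9.51, 9.42, 9.69 and 9.36 in 8uvmo-2 and at 9.03, 8.94, 9.05 and 8.95 in 8uvmo-3. All IL13+ arrays were below all IL13-negative arrays, a difference of -1.43 (SE 0.12, adjusted p = 2.45e-12). Ifit2 was at 6.62, 6.98 and 6.80 in sAg1, at 6.12, 5.67 and 5.84 in sAg3, at 8.23, 7.46, 8.06 and 7.23 in 8uvmo-2 and at 7.36, 7.18, 7.42 and 7.33 in 8uvmo-3, a difference of -1.20 (SE 0.12, adjusted p = 4.71e-10). Here too the arrays were apart, with 8uvmo-2 replicates 1 and 3 above replicates 2 and 4. The same pairs of 8uvmo-2 arrays differed in Ccna2, a cell cycle gene (12.10 and 12.17 against 10.06 and 9.21); its part in the values was not tested, and without replicates 1 and 3 Ifit2 differed by -0.995 and was no longer called. In the dormant comparison 1 was higher and 5 were lower with sAg1 left out, and 1 was higher and 4 were lower with 8uvmo-2 left out, where Ifit2 (-0.984) was not called. Shares of all probe sets were not counted for these fits. With 1 clone on a side, the condition that clone means lie apart is also easier to meet.

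In the activated state 0 members were higher in the IL13+ clones (0.666%) and 1 was lower (2.38%, against 1.08%). With sAg1 left out these were 3 and 4, again with no share of all probe sets counted. The 1 member called with all clones was Gbp3, at -1.04 (SE 0.11, adjusted p = 1.12e-09 in limma). Its values were 7.98 to 8.49 in sAg3 and 8.66 to 9.49 in sAg1, against 9.54 to 10.00 in the IL13-negative arrays. Leaving out activated sAg1 replicate 4 (-0.95) or activated sAg3 replicate 4 (-0.998) took it under the minimum size. With the 2 clones of each phenotype as the replicates, no difference was called: the adjusted p was 0.881 for Ifit2 and Gbp3 in the dormant state and 1 for Gbp3 in the activated state.

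The activation difference itself was higher in the IL13+ than in the IL13-negative clones for 2 members (4.76%, against 1.39% of all) and lower for 0 (0.555%). Gbp2 differed by 1.15 (SE 0.23, adjusted p = 0.000216), since its centred fall was -2.43 in sAg1 and -1.22 in sAg3 against -3.40 in 8uvmo-2 and -2.51 in 8uvmo-3. Ifit2 differed by 1.03 (SE 0.17, adjusted p = 1.26e-05) on deposited values and by 0.83 after quantile normalization, which is under the minimum size. Leaving out 1 array left 1 or 2 members called: Ifit2 was lost (0.955 to 0.99) without dormant sAg1 replicate 1, dormant sAg3 replicate 2, dormant 8uvmo-2 replicate 1 or 3, or activated sAg3 replicate 1, and Gbp2 without activated 8uvmo-3 replicate 4, where its difference was still 1.08 but the clones were no longer apart. Without activated 8uvmo-3 replicates 2 and 4 neither was called (Gbp2 0.983, Ifit2 0.978).

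Those 8uvmo-3 arrays stood apart from their replicates across several members. Activated replicates 1 and 3 were at 9.06 and 8.72 for Mx1, and replicates 2 and 4 at 7.70 and 7.30. For Gbp6 the first pair was at 10.56 and 10.60 and the second at 9.63 and 9.31, and for Gbp4 they were at 10.36 and 10.11 and at 9.28 and 9.07. Irf1 and Trim30a split the same way. The pairs do not correspond to a label. In 8uvmo-3 alone, 7 members were called lower without replicates 2 and 4 and 14 without replicates 1 and 3, against 12 with all arrays. Shares of all probe sets were not counted for the fits without a pair. The calls of Mx1 (-0.53), Gbp4 (-0.98), Gbp6 (-0.94), Ddx58 (-0.997) and Dtx3l (-0.91) were those lost without replicates 2 and 4, on deposited values; without replicate 4 alone, those of Mx1 (-0.929) and Dtx3l (-0.988) were. The mean over the 5 clones had 9 members lower without replicates 2 and 4 and 10 without replicates 1 and 3.

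A second list held 62 other genes of the interferon pathway, 59 of them measured, 58 on probe sets other than the members'. On deposited values 4 of the 58 were higher (4.56% of all probe sets) and 9 lower (1.64%) after activation. On all 3 scalings these were 3 higher (0.953%) and 9 lower (1.60%). Among 8 ligands, Ifng rose. Its dormant means were 10.72 ± 0.12 in sAg1, 11.98 ± 0.11 in sAg3, 11.82 ± 0.081 in 8uvmo-3, 11.14 ± 0.20 in 8uvmo-2 and, lowest, 8.96 ± 0.10 in CD8bm1, and its activated means were 13.59 to 14.17. The centred difference was 2.60 (SE 0.038, adjusted p = 1.58e-33), and all activated arrays were above all dormant arrays. The ligand gene was thus higher in the arrays in which 9 of 42 member probe sets were lower.

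Of 6 receptor genes, Ifngr1, the ligand-binding chain of the interferon gamma receptor, fell, with a centred difference of -2.11 (SE 0.056, 4.30-fold lower). Its deposited means went from 12.33 to 10.47 in sAg1, 10.76 to 9.40 in sAg3, 11.89 to 9.04 in 8uvmo-2, 12.66 to 10.45 in 8uvmo-3 and 9.77 to 9.54 in CD8bm1. In CD8bm1 alone it was not called (centred -0.63), and dormant CD8bm1 was the lowest dormant clone. Ifngr2, the signalling chain, and Ifnar2 had means below 7 in all groups. Jak1, Jak2 and Tyk2, the receptor kinases, were not called (centred -0.66, -0.46 and -0.06).

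Among 10 regulators Irf8, a transcription factor induced by interferon gamma and by T cell receptor signals, rose by 2.62 after centring (SE 0.061), from dormant means of 6.70 to 10.16 to activated means of 10.51 to 11.54. Socs1, the feedback inhibitor of Janus kinases, was not called (-0.03 deposited, -0.43 centred). Ticam1, the adaptor of Toll-like receptor 3, rose by 1.13. Of 27 further responsive probe sets, 8 fell: Psmb9, an immunoproteasome subunit (-2.25 centred), Tgtp1, Gbp8, Gbp9, Gbp11, Herc6, Trim21 and Sp100. Gbp8, Gbp9 and Gbp11 are also named on the probe set of Gbp6, so their values may not be separate measurements. Cxcl10, a chemokine, was called higher on deposited and centred (1.06) values only, with dormant group means of 5.15 to 5.27 and activated ones of 6.34 to 7.09.

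**Figure D5:**
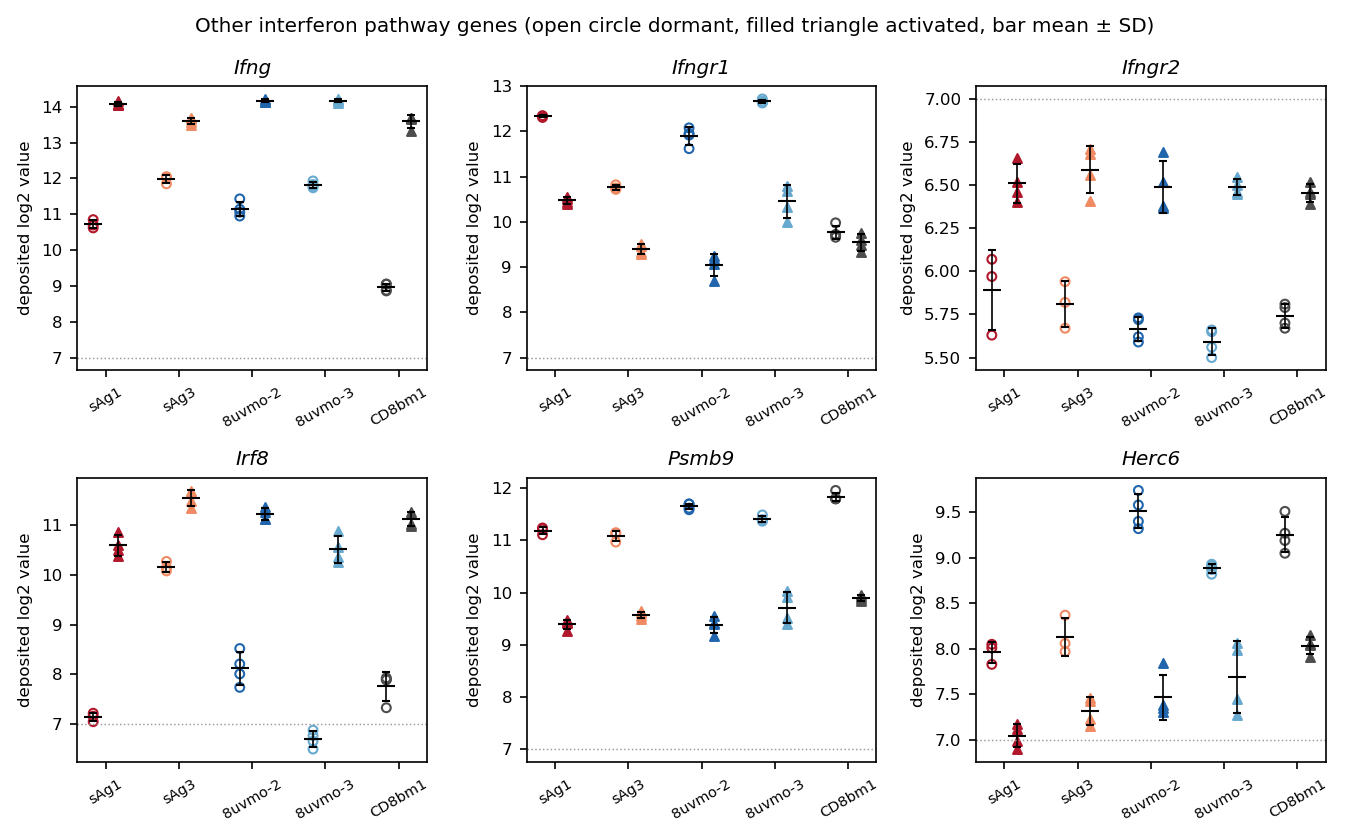
Deposited log2 values of 6 interferon pathway genes that are not members (panels) by clone (x axis) in dormant (open circles) and activated arrays (filled triangles), with the group mean ± SD as black bars; the dotted line marks 7, and each panel has its own y axis that does not start at 0. Ifng and Irf8 are higher and Psmb9 and Herc6 lower in activated arrays of every clone, and Ifngr1 is lower in 4 clones and little changed in CD8bm1.

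The same list described the clones. Of the 58 pathway probe sets, dormant IL13+ clones had 0 higher (1.02% of all probe sets) and 4 lower (2.33%) than the IL13-negative clones. The lower ones were Slfn1, a Schlafen family gene (-3.97, SE 0.10), Il10rb (-2.38), Sp100 (-1.56) and Herc6 (-1.15). For Il10rb the difference rested on sAg3, at 5.59 ± 0.28 against 9.85 ± 0.10 in sAg1 and 10.14 and 10.05 in the IL13-negative clones. Against dormant CD8bm1 the dormant IL13+ clones had 13 of the 58 higher (3.14% of all probe sets) and 3 lower (4.12%). Among the higher ones were Ifng (2.39, SE 0.070), Ifngr1 (1.78, SE 0.11), Ifnar1 (1.12, SE 0.094) and Tgtp1 (2.38, SE 0.15).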

How the data were processed

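RNA of 38 samples of 5 mouse CD8 T cell clones was hybridised to 1-colour Affymetrix arrays, 100 ng of total RNA each, per the labels' protocols. The deposited values are log2 signals, and the submitters' processing notes name RMA and Partek without version or settings; whether both states were normalized together is not given in the sources used here. No background or detection call was used here, and the number of arrays limits the precision. Tested were the 23410 of 35556 rows that the platform annotation ties to a gene. limma 3.58.1 in R 4.3.3 fitted 1 mean for each of 10 groups (eBayes with mean trend, two-sided), with Benjamini-Hochberg adjustment over all tested rows. Called means an adjusted p under 0.05 and a log2 difference of at least 1, with the same sign in all clones (mean activation) or clone means apart (phenotypes); F tests among clones required a range of at least 1. The pipeline was tested on simulated data. A gene was read on a probe set naming it alone before one naming several, then on the one with the highest mean. Described in full were, per comparison, the 8 called members of largest difference or range, and pathway genes only where called or as named examples. Members, lists and tests were chosen with earlier results of these data known. Deviations of same-numbered arrays correlated over 0.1 in 7 of 18 pairs, including all 4 of 8uvmo-2 (0.11 to 0.24) and none of sAg1 or 8uvmo-3, so the number was not used as a block in the main fit. Alternatives were centring, quantile normalization, filters, blocks and leaving out arrays or clones.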

Additional observations from a re-analysis of the deposited data

Results flagged for a closer look

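In 7 of 168 groups of 4 arrays, 1 array lay far from the other 3 by Dixon's criterion, which chance alone meets in about 1 in 20 groups. Stat2 was at 9.55 in dormant 8uvmo-3 replicate 1 (others 9.48 to 9.49), Ifih1 at 8.53 in dormant CD8bm1 replicate 3 (9.02 to 9.05) and Zbp1 at 8.95 in dormant 8uvmo-2 replicate 2 (9.18 to 9.20). Zbp1 was also at 8.88 in dormant 8uvmo-3 replicate 4, where the others were all at 8.89, a difference of no practical size. Bst2 was at 10.76 in activated CD8bm1 replicate 1 (10.87 to 10.88), Gbp2 at 7.85 in activated sAg1 replicate 4 (8.25 to 8.33) and Gbp4 at 8.87 in activated CD8bm1 replicate 2 (8.49 to 8.52).

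The activation difference was higher in IL13+ than in IL13-negative clones for Ifit2 by 1.03 (adjusted p = 1.26e-05) and for Gbp2 by 1.15 (adjusted p = 0.000216), both by an interaction contrast in limma. Over the 5 clones it differed by F test with a range of 2.54 for Ifih1, 2.20 for Gbp2, 2.02 for Xaf1, 1.95 for Ddx58, 1.93 for Gbp3, 1.91 for Irf1, 1.51 for Zbp1 and 1.497 for Gbp4. Their adjusted p-values lay between 6.85e-13 and 0.000877.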

How the results depend on the processing

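Counts are of member probe sets called, higher or lower, as in the report. Of the settings below, the share of all probe sets was counted only for the mean over clones after centring (5.56% lower). After centring each array on its median, 16 were lower over the 5 clones, 12 in sAg3 (0 higher), 20 in 8uvmo-2 and 19 in 8uvmo-3. Quantile normalization gave 7 lower and 0 higher in sAg3, and 1 higher in the activation difference between phenotypes. Leaving out dim probe sets gave 0 higher in sAg3. Without a minimum difference, but with the same sign still required in all 5 clones, the mean over clones had 8 higher and 18 lower. In single clones the counts were 11 and 23 in sAg1, 13 and 17 in sAg3 and 11 and 24 in 8uvmo-2. They were 12 and 27 in 8uvmo-3 and 10 and 15 in CD8bm1. The same setting gave 4 and 8 for dormant IL13+ against IL13-negative clones, 9 and 3 for the activated ones, 17 and 9 and 15 and 3 against CD8bm1, 7 and 2 for the activation difference, and 37, 34 and 33 for the tests among dormant clones, activated clones and activation differences. With no condition on the clones, 1 member was higher in each of the dormant and activated phenotype comparisons. With clone means as replicates, the phenotype comparisons had 0 lower in either state, and the activation mean still had 10. Without dormant 8uvmo-2 replicates 1 and 3, 1 was lower in the dormant phenotype comparison and 1 higher in the activation difference. Chosen after seeing the data were the settings that left out a clone or the activated 8uvmo-3 arrays. Without 8uvmo-2 the dormant phenotype comparison had 1 higher and 4 lower, and the activation mean 8 lower, with Ifit2 and Dtx3l lost. Without CD8bm1, 1 was higher over the clones, Ifih1. Without sAg1 there were 1 higher and 5 lower (dormant) and 3 and 4 (activated) between phenotypes, 5 and 1 in the activation difference, and 5 (dormant) and 0 (activated) lower against CD8bm1. Without activated 8uvmo-3 replicates 1 and 3, 1 was higher in the activated phenotype comparison. Without replicates 2 and 4, 7 were lower in 8uvmo-3 and 0 were higher in the activation difference. Leaving out single arrays gave 0 to 1 lower in the activated phenotype comparison, 1 to 2 higher in the activation difference and 9 to 10 lower in the activation mean. With the replicate number as a block the activation mean had 10 members lower, and no other count moved by over 1.5 times; correlations of same-numbered arrays ran from -0.24 to 0.27, and in 8uvmo-2, where all 4 were over 0.1, the block left 13 members lower. Of the single member values, 873 kept their direction and call under other settings and 27 lost the call; with 1 array left out these were 1090 and 21, and none reversed. Limits are the small number of clones, weak signal of 11 probe sets, and 6 members on probe sets shared with other genes. The cause of these changes was not tested.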
